A study of Mus musculus with 8 samples.

Results

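The core cardiac transcription factors followed here are 9 genes, Gata4, Gata5, Gata6, Nkx2-5, Hand1, Hand2, Mef2a, Mef2c and Isl1, taken by symbol from a count table of 22869 symbols. All 9 were found in the table and all 9 passed the filter on low counts. RNA was measured by total RNA sequencing, after removal of ribosomal RNA, in hearts of C57BL/6 mouse embryos at E12.5. The 8 libraries form 4 groups of 2: atrioventricular (AV) cushion and ventricle, each from embryos labelled wild type and from embryos labelled NfatC1+/-; KLF2fl/fl, called mutant below. Cushions are tissue pads in the AV canal from which valves and septa develop, and the ventricle is mostly working heart muscle. KLF2fl/fl denotes 2 Klf2 alleles flanked by recombinase sites. What NfatC1+/- stands for, a lost copy of Nfatc1 or a recombinase knocked into it, is not given by the labels, and Nfatc1 dose may therefore differ between the genotypes as well. The series' design text names KLF2 fl/fl mice beside the mutants, so controls labelled wild type may carry the floxed alleles too. Nor do the labels give the embryos behind each library, single, shared or pooled, and p-values measure only the spread between these libraries, which may be technical.

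GATA factors are zinc finger proteins that bind GATA sequences, NKX2-5 and ISL1 are homeodomain proteins, HAND factors are basic helix-loop-helix proteins that pair with E proteins, and MEF2 factors are MADS box proteins. These families bind together at regulatory DNA of heart muscle genes and depend on each other's genes in the embryo. GATA4, GATA5 and GATA6 also act in endocardium and cushion mesenchyme, ISL1 marks progenitors of the second heart field, HAND1 and HAND2 are best known for left and right ventricle growth in the mouse, and MEF2C is needed for looping and growth of the mouse heart tube.

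The promoters of Gata5 and Mef2c are shown because these genes had the largest differences between cushion and ventricle in wild type, in opposite directions. Each is the window of 250 bases before a RefSeq transcript start in GRCm38.p6, 5′ to 3′ on the gene's own strand, with GATA or its reverse complement in capitals. The Gata5 window lies at chr2:180334680-180334929 on the minus strand, and the Mef2c window at chr13:83503784-83504033 on the plus strand.
Gata5: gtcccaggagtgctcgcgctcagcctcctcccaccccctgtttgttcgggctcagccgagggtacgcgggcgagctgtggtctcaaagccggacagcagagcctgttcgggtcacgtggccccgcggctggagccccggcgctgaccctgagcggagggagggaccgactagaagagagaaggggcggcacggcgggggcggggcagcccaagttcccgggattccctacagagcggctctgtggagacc
Mef2c: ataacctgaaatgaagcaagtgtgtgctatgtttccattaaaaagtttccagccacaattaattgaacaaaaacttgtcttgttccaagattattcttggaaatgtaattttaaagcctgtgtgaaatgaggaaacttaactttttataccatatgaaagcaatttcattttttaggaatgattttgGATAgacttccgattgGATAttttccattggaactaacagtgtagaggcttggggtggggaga
The Gata5 window is rich in G and C, at 70% of bases, and the Mef2c window is at 33.6%. GATA occurs 0 times in the Gata5 window and 2 times in the Mef2c window, on both strands counted together. CANNTG, the E-box read by helix-loop-helix pairs, occurs once in Gata5 and 2 times in Mef2c, and CACCC, of the kind bound by KLF proteins, once in each. No base of either window lies in more than 1 of these motifs. Of 32851 promoter windows of this length, 53.6% hold GATA, 66.2% hold CANNTG and 52% hold CACCC, so these are common words. RefSeq windows were matched for 6 of the 9 genes, and for Mef2c the most upstream of 3 was taken.

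Library totals with 1 row per symbol lay between 18955737 and 26579218 counts, and 14940 symbols were tested. Levels are given in CPM (read counts relative to the scaled library total), where 1 CPM was at least 18.7 reads. Klf2, the targeted gene, was at 17.3 and 12.9 CPM in wild type cushions, 1.96 and 0.651 CPM in mutant cushions, 11.7 and 9.19 CPM in wild type ventricles and 0.736 and 0.625 CPM in mutant ventricles. Every mutant library was below every wild type library. The log2 difference was -3.54 ± 0.42 (SE) in cushions, with an adjusted p of 0.146 in edgeR's quasi-likelihood test over all genes and of 2.85e-05 with the replicate number as a block. Nfatc1 was at 35.9 and 22.0 CPM in wild type and 24.9 and 15.2 CPM in mutant cushions. It was lower in the mutant within each replicate number, but the genotypes overlapped. Its log2 difference was -0.53 ± 0.59 (SE, adjusted p = 0.72, edgeR) by group and -0.53 ± 0.17 (SE, adjusted p = 0.1003, edgeR) with the block. With the block and GC content and length corrected for, it was -0.33 (adjusted p = 0.373, edgeR). Differences between libraries numbered 1 and 2 were shared in part between groups, with Pearson r across genes of 0.341 to 0.522. Those numbered 1 had more Ttn, at 2.03% to 6.48% of counts against 1.09% to 1.52%. Mutant cushion replicates also stood apart from each other. Replicate 2 had more of several ventricular genes, such as Bmp10 at 40.9 CPM against 8.53 CPM in replicate 1. Replicate 1 had far more of elastic fibre genes such as Eln, at 278 CPM against 14.7 CPM. The 4 listed smooth muscle markers summed to 987 CPM in replicate 1 and 1099 CPM in replicate 2, and each was slightly lower in replicate 1. Whether these markers follow smooth muscle content was not tested.

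**Figure D1:**
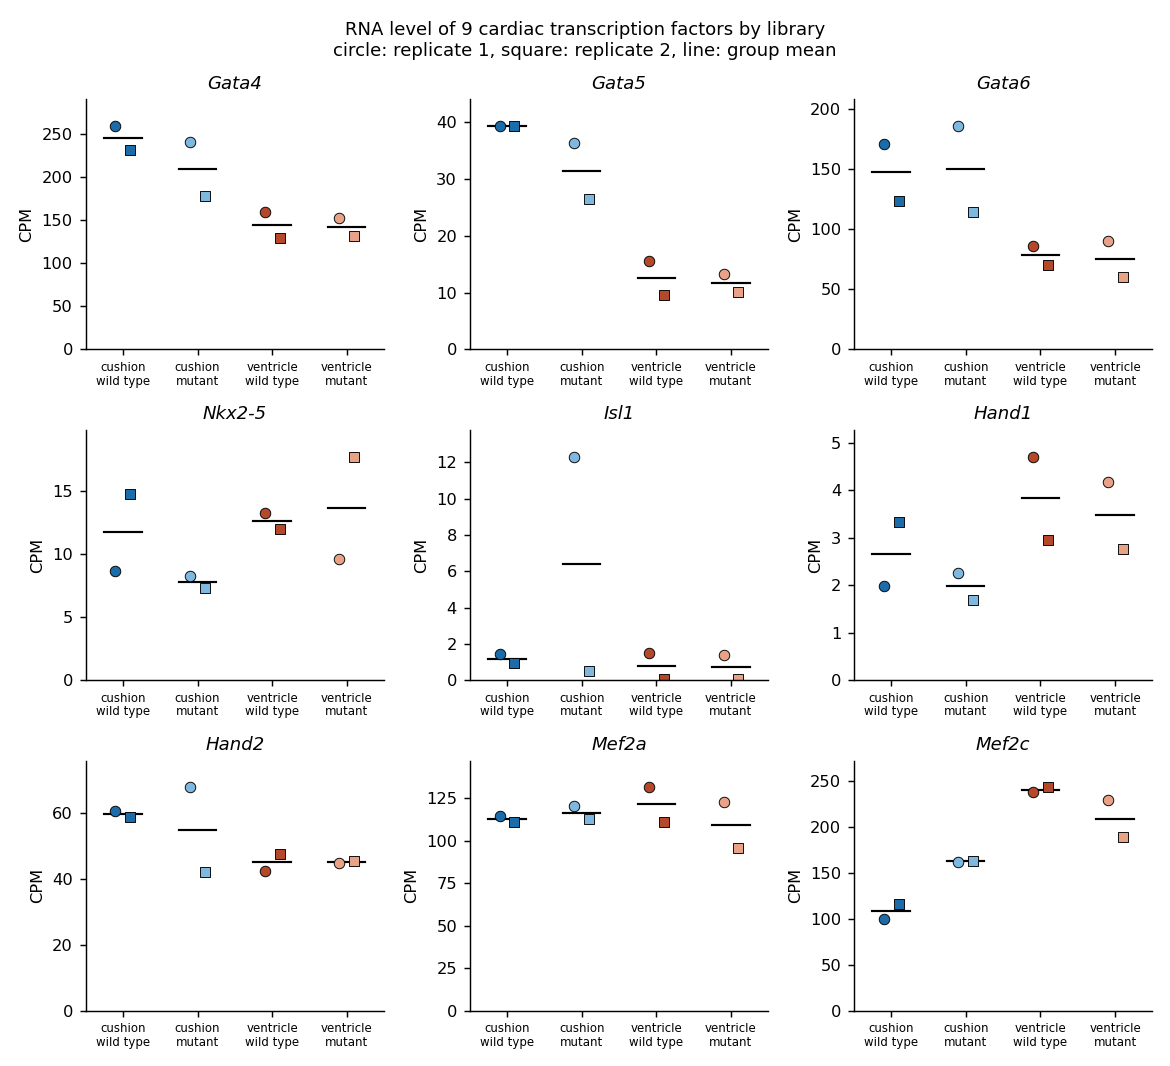
RNA level of each transcription factor in CPM (vertical axes, each from 0) in the 2 libraries of each group, with a line at the group mean. The 3 GATA genes sit higher in cushions, Mef2c sits higher in ventricles and between the tissues in mutant cushions, and Isl1 is high in mutant cushion replicate 1 only, at 12.3 CPM.

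Gata4, whose protein is a central activator of heart muscle genes and is needed in endocardium for cushion formation, was the most abundant of the factors per transcript length. Its level in wild type cushions was 72.1 ± 5.83 CPM per kb (SD, n = 2) and in wild type ventricles 42.4 ± 6.26 CPM per kb (SD, n = 2). In wild type cushions the order below Gata4 was Gata6 at 39.0, Hand2 at 25.3, Mef2a at 20.4, Mef2c at 17.2, Gata5 at 12.0, Nkx2-5 at 7.67, Hand1 at 1.39 and Isl1 at 0.469 CPM per kb, and no neighbours in this order overlapped between their libraries. In wild type ventricles Mef2c came second at 38.3 CPM per kb, with libraries that overlapped those of Gata4. Mef2a, Gata6 and Hand2 followed at 21.9, 20.7 and 19.1 CPM per kb, each overlapping its neighbour in this trio, then Nkx2-5 at 8.28, Gata5 at 3.82, Hand1 at 2.01 and Isl1 at 0.308 CPM per kb. Mutant cushions kept Gata4 and Gata6 at the top, at 61.6 and 39.7 CPM per kb, with Mef2c at 25.9 and Hand2 at 23.3 CPM per kb next and overlapping. In mutant ventricles Gata4 at 41.8 and Mef2c at 33.3 CPM per kb led and did not overlap. These levels use the longest annotated transcript of each gene. With the median transcript length in its place, 2 of the 9 kept their rank by the mean over all 8 libraries, and in wild type cushions Gata6 stood above Gata4, at 201 against 159 CPM per kb, so the order depends on which transcripts the tissue makes.

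**Figure D2:**
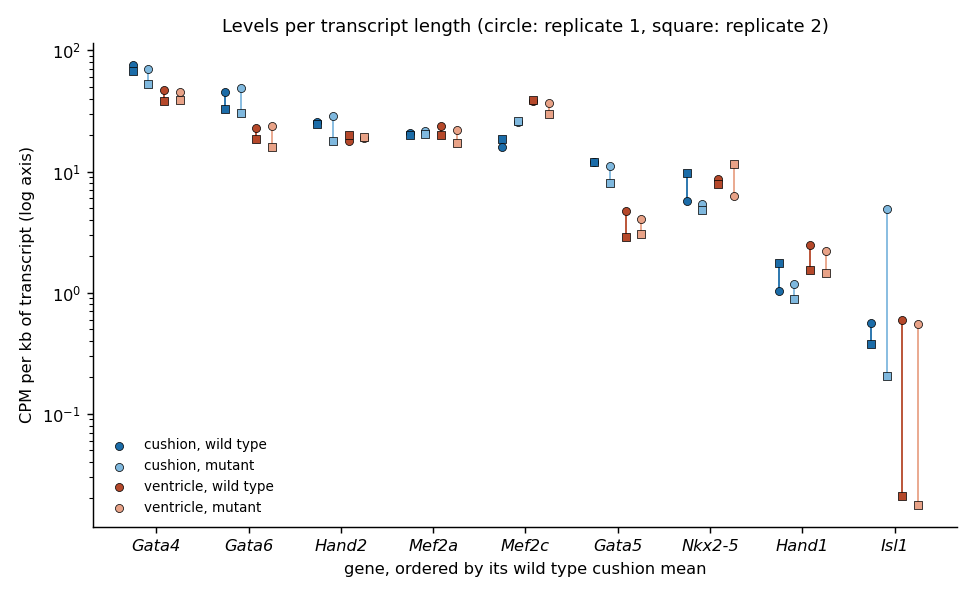
Level per kb of the longest transcript (vertical log axis) of each gene, ordered by its wild type cushion mean, with 1 point per library and a line joining the libraries of a group. Gata4 is the highest in each group by mean, from 41.8 to 72.1 CPM per kb, and Hand1 and Isl1 are the lowest.

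The comparison of wild type cushion with wild type ventricle shows how the factors differ between valve-forming and muscle-rich tissue. Gata4 and Gata5 were higher in cushions and Mef2c was lower, and the other 6 did not pass. Of all genes tested 23.1% were called, 1862 higher and 1591 lower in cushion, beside 3 of the 9 factors. The median log2 difference was 0.41 over the factors and 0.01 over all genes tested. Where libraries of the tissues are said below not to overlap, in either genotype, the share of all genes that did so was not counted. With 2 libraries a group, such separation can arise without a true difference.

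Gata5, whose protein acts in endocardial and aortic valve development in the mouse, was at 39.2 CPM in both wild type cushion libraries and at 15.5 and 9.50 CPM in wild type ventricles. The tissues did not overlap, and the level was 3.14-fold higher in cushion, a log2 difference of 1.65 ± 0.26 (SE, adjusted p = 0.00424, edgeR). Gata4 was at 259 and 231 CPM in wild type cushions and 159 and 129 CPM in wild type ventricles. All 4 cushion libraries, mutants included, lay above all 4 ventricle libraries. Gata4 was called in DESeq2 (adjusted p = 0.00352) and in edgeR with the replicate block (0.000115). It was also called with the block and GC content and length corrected for, at a log2 difference of 0.30 (0.00854). In the edgeR fit by group the log2 difference was 0.77 ± 0.18 (SE, adjusted p = 0.0205). This call ended when wild type cushion replicate 1 (adjusted p = 0.101) or 2 (0.0566) or wild type ventricle replicate 2 (0.148) was left out, and when GC content and length were corrected for, with a log2 difference of 0.31 (0.248).

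Gata6, whose protein shares targets with GATA4 and is needed in the mouse outflow tract, was at 171 and 123 CPM in wild type cushions and 86.2 and 70.4 CPM in wild type ventricles. Its cushion libraries were all above its ventricle libraries in both genotypes. The log2 difference of 0.91 ± 0.30 (SE) missed the threshold, with adjusted p = 0.0625 in edgeR, and passed with the replicate block, at 0.90 and adjusted p = 4.53e-05. It also passed in DESeq2 (0.0111), and with GC content and length corrected for it was 0.54 (0.231) by group and 0.51 (0.0032) with the block. With the block, 4 factors were called, Gata6 beside the other 3, where 41.4% of all genes were called.

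Mef2c, whose protein activates muscle structural genes, ran the other way. It was at 100 and 116 CPM in wild type cushions and 238 and 243 CPM in wild type ventricles. The log2 difference was -1.15 ± 0.14 (SE, adjusted p = 0.00175, edgeR), and it stayed past the threshold under every alternative computed, as did that of Gata5, with highest adjusted p of 0.0259 and 0.0435. Mef2a, a relative that is broadly expressed, was at 115 and 111 CPM in wild type cushions and 131 and 111 CPM in wild type ventricles, and the tissues overlapped (log2 difference -0.10 ± 0.15 SE, adjusted p = 0.662, edgeR).

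Hand2 was at 60.5 and 58.6 CPM in wild type cushions and 42.3 and 47.5 CPM in wild type ventricles, without overlap, but its log2 difference of 0.41 ± 0.20 (SE) did not pass (adjusted p = 0.179, edgeR), and it was -0.07 once GC content and length were corrected for. Hand1 was low in both tissues, at 1.97 and 3.32 CPM in wild type cushions and 4.70 and 2.96 CPM in wild type ventricles, which overlapped. Nkx2-5, an early marker and regulator of the cardiac lineage, was at 8.64 and 14.8 CPM in wild type cushions and 13.3 and 12.0 CPM in wild type ventricles, also overlapping. Its log2 difference of -0.11 did not pass by group (adjusted p = 0.842, edgeR), and was -0.60 and called (0.00927) with the block and GC content and length corrected for. Isl1 had 30 and 24 reads in wild type cushions and 28 and 1 reads in wild type ventricles, so its libraries spread more within the ventricle than between tissues.

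In bulk tissue, fewer cells of a type and less RNA per cell cannot be told apart. Cushion mesenchyme markers were higher in the same comparison in 4 of 7 genes and in 7 of 7 with the block, with a summed level of 6613 to 14260 CPM in wild type cushions and 1404 to 3655 CPM in wild type ventricles. Postn, a matrix protein of valve mesenchyme, had a log2 difference of 3.38, and Twist1, a mesenchymal transcription factor, of 3.70. Of 7 cardiomyocyte markers, 1 was called lower by group, Tnnt2 at -0.93. Of the 7, 2 lay above 0 by group, Myl7 at 0.89 and Myh6 at 0.73, neither called. With the block 3 were called lower and 1 higher, Myl7 at 0.84. The list summed to 23440 to 40480 CPM in wild type cushions and 26700 to 88400 CPM in wild type ventricles. Ttn made up most of these sums and was higher in replicate 1. It was at 29510 and 12550 CPM in wild type cushions and 70720 and 15180 CPM in wild type ventricles, so the sums follow the replicate number. No marker of these lists was at 0 in any library, so both tissues held RNA of both kinds, and the part of tissue makeup in the factors' differences was not tested. Of 6 atrial and sinus markers 4 were called higher in wild type cushions, among them Shox2 with a log2 difference of 6.22, so the cushion samples also held RNA of AV canal or atrial muscle type. Across all genes with an annotated length, the wild type tissue difference correlated with GC content (Spearman rho 0.39 over 14762 genes, which are not independent). Gata4, Gata5 and Gata6 have 57.4%, 56.9% and 55.3% GC and Mef2c has 40.8%, against a median of 49.65% over the genes tested.

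**Figure D3:**
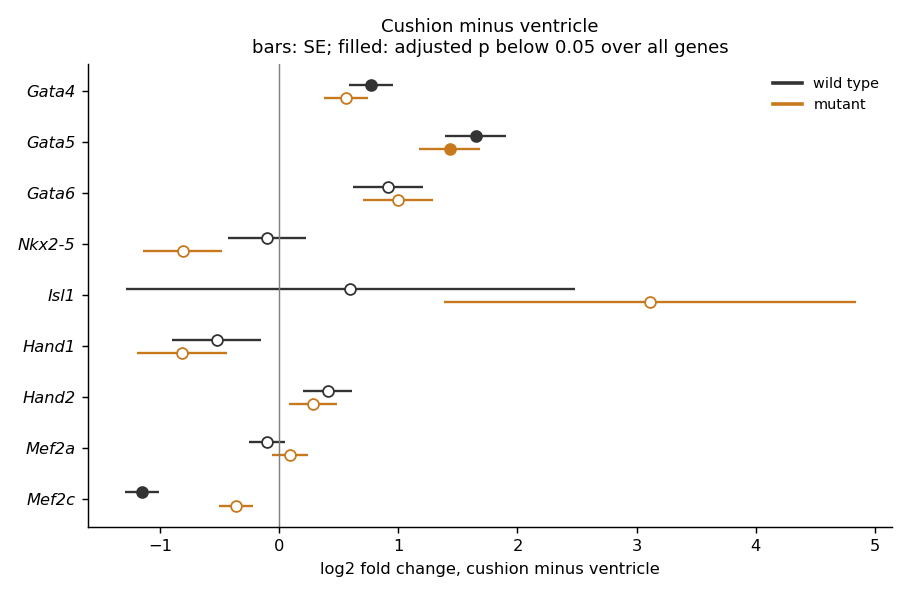
Log2 difference of cushion minus ventricle (horizontal axis) for each factor in wild type and mutant embryos, with bars for the SE and filled points for an adjusted p under 0.05 over all genes in edgeR. The 3 GATA genes lie right of 0 in both genotypes, and Mef2c lies at -1.15 in wild type and -0.36 in mutants.

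The same tissues were compared in mutants. Gata5 was again higher in cushion, at 36.3 and 26.5 CPM against 13.2 and 10.04 CPM, a log2 difference of 1.43 ± 0.26 (SE, adjusted p = 0.0132, edgeR). It was the 1 factor called, where 9.42% of all genes were called, 920 higher and 487 lower in cushion. The call ended without mutant cushion replicate 1 (adjusted p = 0.0954) and without mutant ventricle replicate 2 (0.0858). Gata4, at 241 and 178 CPM against 153 and 131 CPM, and Gata6, at 186 and 114 CPM against 90.1 and 60.5 CPM, did not overlap between tissues. By group they missed the threshold, with adjusted p of 0.0966 and 0.0824 in edgeR, and with the block they passed, at log2 differences of 0.55 and 0.98 and adjusted p of 0.0025 and 3.17e-05. Gata6 also passed in DESeq2 (adjusted p = 0.00909) and without mutant cushion replicate 2 (0.0356), and both passed with library totals in place of TMM (0.0459 and 0.0186). Mef2c, at 162 and 163 CPM against 229 and 189 CPM, was lower in cushion with the block, by a log2 difference of -0.36 ± 0.12 (SE, adjusted p = 0.0486, edgeR), and that call ended in block fits without wild type cushion replicate 2 (0.0699), mutant cushion replicates 1 (0.145) and 2 (0.0978), wild type ventricle replicate 2 (0.0714) and mutant ventricle replicate 1 (0.42). With the block 4 factors were called in mutants, beside 23.9% of all genes. Nkx2-5, at 8.24 and 7.29 CPM in mutant cushions and 9.60 and 17.7 CPM in mutant ventricles, had a log2 difference of -0.81 ± 0.33 (SE) that did not pass by group (adjusted p = 0.174, edgeR), and passed with GC content and length corrected for, at -0.76 (0.0368) by group and -0.75 (0.00369) with the block.

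Mutant and wild type cushions were set side by side to see how the factors stand where Klf2 RNA is reduced. No factor passed in edgeR, and 0% of all genes did, with 1699 genes at an unadjusted p under 0.05. DESeq2 called 23 genes and limma-voom 0, with none of the factors among them. 1 of the 9, Mef2c, had an unadjusted p under 0.05. The median log2 difference was -0.12 over the factors and -0.01 over all genes tested.

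Mef2c was at 100 and 116 CPM in wild type cushions and 162 and 163 CPM in mutant cushions. Both mutant libraries were above both wild type ones and nearly equal. With 2 libraries a group, such separation can arise without a true difference, and its share over all genes was not counted. The log2 difference was 0.59 ± 0.14 (SE), or 1.51-fold, with adjusted p = 0.435 in edgeR. With the replicate block it was 0.59 ± 0.12 (SE) with adjusted p = 0.0454, the only factor called there, where 0.295% of all genes were called higher in mutants. In block fits without 1 library the call ended without wild type cushion replicate 1 (log2 difference 0.43, adjusted p = 0.231), wild type cushion replicate 2 (0.74, 0.162), mutant cushion replicate 2 (0.58, 0.0576), wild type ventricle replicate 1 (0.59, 0.0603) and wild type ventricle replicate 2 (0.59, 0.0758).

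Mutant minus wild type cushion differences fell with GC content across genes (Spearman rho -0.61 over 14762 genes, which are not independent), and Mef2c, at 40.8%, has the lowest GC content of the 9 factors. With GC content and length corrected for in the block fit, the Mef2c difference was 0.38 with adjusted p = 0.103 in edgeR. Epicardial markers summed to 191 to 233 CPM in wild type and 261 to 330 CPM in mutant cushions, and leukocyte markers to 67.3 to 95.8 and 93.0 to 129 CPM. Endothelial and endocardial markers summed to 1325 to 1412 and 1332 to 1675 CPM, and the myocardial target genes to 27470 to 28260 in wild type and 23660 to 31810 CPM in mutant cushions. Cushion mesenchyme markers summed to 6613 to 14260 CPM in wild type and 6338 to 10130 CPM in mutant cushions, and all 7 had log2 differences below 0, with a median of -0.41. No marker of any of the 10 lists passed in edgeR by group. With the block 3 passed, the epicardial gene Tbx18 at 0.53 (adjusted p = 0.0488), the cartilage and mesenchyme collagen gene Col2a1 at -0.76 (0.0176) and the liver gene Afp at -1.995 (0.0454). With GC content and length also corrected for, their adjusted p were 0.0736, 0.156 and 0.0714. In that fit 1 of the 6 epicardial markers, other than Tbx18, was called higher in mutant cushions. The part of these shifts in the Mef2c value was not tested.

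**Figure D4:**
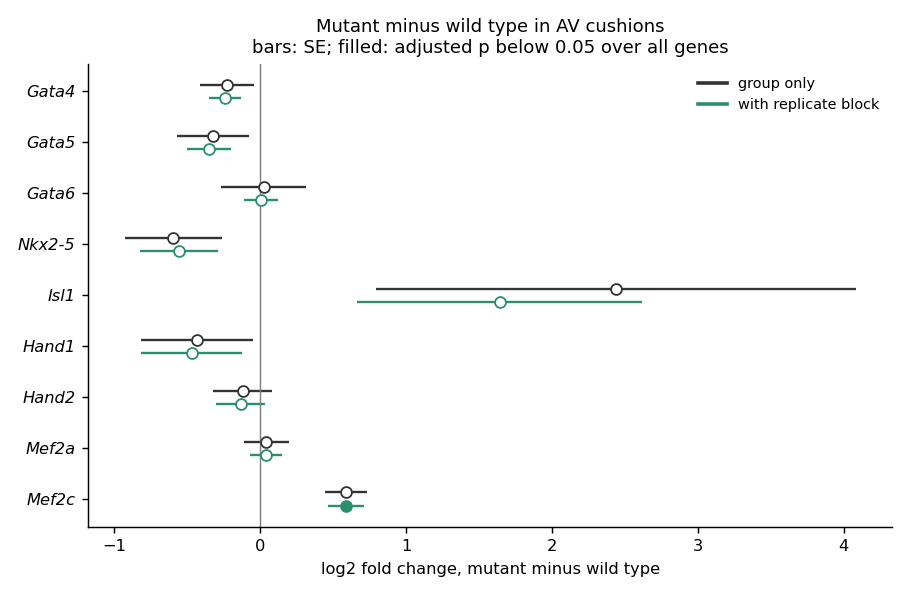
Log2 difference of mutant minus wild type cushion (horizontal axis) for each factor, from the fit by group and from the replicate block fit, with bars for the SE and filled points for an adjusted p under 0.05 over all genes in edgeR. Mef2c at 0.59 is the only filled point, with the block, and Isl1 has the widest bar, 1.64 by group.

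The other cushion values did not pass in either fit. Gata4 overlapped between genotypes, with a log2 difference of -0.23 ± 0.18 (SE), and so did Gata6, at 0.03 ± 0.29 (SE), Hand1, at -0.43 ± 0.39 (SE), Hand2, at -0.12 ± 0.20 (SE), and Mef2a, at 0.04 ± 0.15 (SE). Gata5 and Nkx2-5 were lower in both mutant cushions than in both wild type ones, with log2 differences of -0.32 ± 0.25 (SE) and -0.59 ± 0.33 (SE) and adjusted p of 0.587 and 0.493 in edgeR. Such separation can arise without a true difference with 2 libraries a group, and its share over all genes was not counted. With the block and GC content and length corrected for, Gata4 was at 0.07 and Hand2 at 0.18, so the sign of these small differences turned with that setting.

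In ventricles, no factor passed by group or with the block, where 0% and 0.00669% of all genes were called. 342 genes had an unadjusted p under 0.05, none of the factors among them, and DESeq2 called 1 gene and limma-voom 0. Mef2c was at 238 and 243 CPM in wild type and 229 and 189 CPM in mutant ventricles, lower in both mutants, with a log2 difference of -0.20 ± 0.14 (SE, adjusted p = 0.998, edgeR). The other 8 factors overlapped between genotypes, and the share of all genes that did was not counted. Ventricular Gata4 averaged 144 ± 21.3 CPM (SD, n = 2) for wild type libraries, against 142 ± 15.2 CPM (SD, n = 2) for mutant ones. Ventricular Hand2 averaged 44.9 ± 3.67 CPM (SD, n = 2) for wild type libraries, against 45.0 ± 0.282 CPM (SD, n = 2) for mutant ones.

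Whether the genotype difference was unequal in the tissues was tested directly. No factor passed by group or with the block, and 0% of all genes did in either fit, with 1776 genes at an unadjusted p under 0.05 by group and none called by DESeq2 or limma-voom. The cushion difference of Mef2c exceeded its ventricle difference by 0.79 ± 0.20 (SE) on the log2 scale, with adjusted p = 0.414 in edgeR and 0.0852 with the block. With the block it passed without mutant cushion replicate 1 (0.02), mutant cushion replicate 2 (0.0498) and mutant ventricle replicate 1 (0.0159), and with the block and GC content and length corrected for it was 0.43 (0.302).

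Isl1 RNA was scarce in 7 libraries and high in 1. It was at 1.41 and 0.950 CPM in wild type cushions, 12.3 and 0.521 CPM in mutant cushions, 1.497 and 0.0528 CPM in wild type ventricles and 1.39 and 0.0446 CPM in mutant ventricles. The 251 reads in mutant cushion replicate 1 put its level between 10.8 and 13.9 CPM, and the 12 reads in mutant cushion replicate 2 between 0.269 and 0.910 CPM, by exact Poisson 95% intervals that cover counting error only. Each library numbered 1 was above its partner numbered 2. The cushion genotype difference was 2.44 ± 1.64 (SE) on the log2 scale (adjusted p = 0.554, edgeR) and -1.16 without mutant cushion replicate 1, and the tissue difference in mutants was 3.11 ± 1.73 (SE, adjusted p = 0.336, edgeR) and -0.48 without it.

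The genes closest to Isl1 over the 8 libraries, by the root mean square difference of centred log2 CPM among 10413 genes with a mean of at least 5 CPM, were Fbln5 at 0.732, Eln at 0.770 and Rgs5 at 0.844. Fbln5 and Eln encode elastic fibre proteins of the arterial wall and Rgs5 a regulator of G protein signalling found in pericytes and arterial smooth muscle. Fbln5 was at 79.3 and 23.6 CPM in wild type cushions, 291 and 17.2 CPM in mutant cushions, 21.7 and 8.13 CPM in wild type ventricles and 27.7 and 7.32 CPM in mutant ventricles. Rgs5 was at 54.6 CPM in mutant cushion replicate 1 and at 1.16 to 5.40 CPM in the other 7 libraries. All 3 peaked in the library in which Isl1 peaked. The 4 listed smooth muscle markers did not, and they summed to 987 CPM in that library and 1099 CPM in mutant cushion replicate 2. Acta2 was the largest part of these sums, at 548 and 609 CPM, and Myh11 was at 3.34 and 3.52 CPM. In ventricles the list summed higher, to 1277 to 1573 CPM in wild type and 1300 to 1811 CPM in mutants. Whether the sum follows smooth muscle content was not tested. Of the 12 genes listed for the second heart field and outflow tract, Fgf8 was listed at 0 in 7 libraries and Tbx1 was at most 0.0491 CPM, while Foxc1 was at 49.9 and Wnt5a at 81.5 CPM in mutant cushion replicate 1 against 26.9 and 48.5 CPM in replicate 2.

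**Figure D5:**
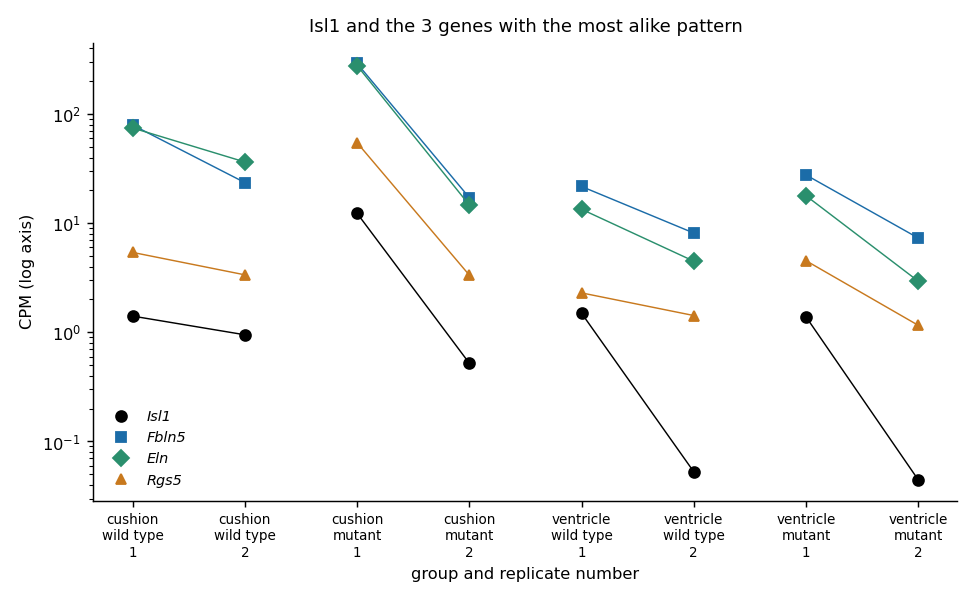
Level in CPM (vertical log axis) of Isl1, Fbln5, Eln and Rgs5 in each of the 8 libraries, with a line joining the libraries of a group. All 4 genes peak in mutant cushion replicate 1, Isl1 at 12.3 CPM and Fbln5 at 291 CPM.

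The other factors had closer neighbours, by the same measure. Gata4 was nearest to Kalrn at 0.0555, then Fmnl3 and Nrip1, and Gata6 to Flrt3 at 0.0783, then Tgfb2, a growth factor of cushion formation, and Rbms3. Gata5 was nearest to Col27a1 at 0.0912, Unc5b and Mtap2, and Hand2 to Sat2 at 0.0732, Dvl2 and Plin3. Mef2c was nearest to Lactb2 at 0.0969, then Nebl, which encodes the Z-disc protein nebulette, and Hook1. Mef2a was nearest to Lig4 at 0.0386, Mapk14 and Arhgap6, Nkx2-5 to Esrra at 0.12, Neurl2 and Fastk, and Hand1 to Celsr1 at 0.189, Prtg and Acacb.

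Among 24 listed partners and cofactors of these factors, 6 were called higher and 5 lower in wild type cushion than ventricle, and in mutants 1 higher and 4 lower. Lower in cushion were Hdac9, a deacetylase that binds and represses MEF2 proteins, at a log2 difference of -1.46 (adjusted p = 0.00081, edgeR), Hey2, a repressor of the ventricular compact layer, at -1.38 (0.00177), and Myocd, the SRF coactivator myocardin, at -1.12 (0.00266). Higher was Tcf12, an E protein that pairs with HAND factors, at 514 and 398 CPM in wild type cushions against 202 and 182 CPM in wild type ventricles, a log2 difference of 1.25 (adjusted p = 0.00251, edgeR). All 4 also passed in mutants, with Tcf12 at 1.17 (0.00567) and Myocd at -0.96 (0.00879). Between genotypes no partner passed in either tissue, and 1, Hdac4, another deacetylase that binds MEF2, was lower in mutant cushions with the block, at -0.71 (adjusted p = 0.049, edgeR), and this call ended once GC content and length were also corrected for (-0.51, 0.143).

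Of 26 myocardial genes listed as targets of the factors, 9 were called lower and 0 higher in wild type cushion than ventricle, with a median log2 difference of -0.84 against 0.01 over all genes. Pln, which encodes the calcium pump inhibitor phospholamban, was at -2.12 (adjusted p = 0.00134, edgeR), Gja1, the gap junction gene for connexin 43, at -1.84 (0.00427), Mb, which encodes myoglobin, at -2.94 (0.0081), and Xirp2, an intercalated disc gene, at -1.39 (0.0205). In mutants 8 were lower and 0 higher, with Mb at -2.60 (0.0199) and with the smallest p for Des, the desmin gene, at -1.02 (0.0118). None passed between genotypes in either tissue by group or with the block, and the medians were -0.05 in cushions and 0.08 in ventricles.

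Of 8 family relatives, 4 were tested. Gata3 was higher in wild type cushion than ventricle, at 4.41 and 2.22 CPM against 0.802 and 1.06 CPM, a log2 difference of 1.82 (adjusted p = 0.0464, edgeR), and none passed between genotypes. Mef2d, the most abundant relative, was at 14.2 and 13.1 CPM in wild type cushions and 21.3 and 14.4 CPM in wild type ventricles. Of 9 tested genes of the second heart field and outflow list, Wnt11, a WNT ligand of outflow tract muscle, was higher in wild type cushion at a log2 difference of 1.19 (adjusted p = 0.0105, edgeR). None of that list passed between genotypes.

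Some counts carry a further limit. Which strand was counted is not given, and Gata5, Gata6, Hand2 and Mef2a each overlap a gene on the opposite strand in GENCODE vM21, so reads of a partner cannot be told apart from theirs. Of these partners Lysmd4, opposite Mef2a, is in the count table.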

How the data were processed

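The authors deposited raw counts per table row for 8 libraries (stranded total RNA kit, per the labels' protocols). The submitters' processing notes name Bowtie 0.12.7 and mm9. How reads were counted, on which annotation and strand, is not given in the sources read here. The 8 files hold the same table of 28644 rows. 3705 symbols had more than 1 row. Of these the row with most counts was used, and the 2 rows of Mef2c held nearly the same counts.

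The test was edgeR 4.0.16 under R 4.3.3 (TMM, filter by group, robust quasi-likelihood fit over 4 groups of 2, two-sided, Benjamini-Hochberg over all 14940 symbols, threshold 0.05). The adjusted p-values in the text come from this fit unless another is named. These symbols hold 99.97% of the counts. SE is the log2 difference divided by the root of F. Alternatives were DESeq2 1.42.0, limma-voom 3.58.1, other scalings and filters, a replicate block, a spline correction for GC content and length, and leaving out each library. Transcript length and GC content were those of the longest GENCODE vM21 transcript, matched for 98.3% of symbols. The script was tested on simulated data.

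Labels do not say what replicate numbers mark. Deviations of same-numbered libraries correlated in all 6 pairs of groups (Pearson r across genes 0.341 to 0.522), so they were used as a pairing that the data show and the design does not state. Replicates differed by more than counting noise in every group.

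The members and lists were chosen with earlier results of these data known. Named by rule are the 9 factors, the 3 genes most like each, up to 4 called members of each list by smallest p or else the 3 most abundant, Klf2 and Nfatc1. Bmp10, Fgf8, Tbx1, Ttn, Hdac4, Myl7 and Myh6 were named after their values were seen. The result of 1 listed gene is not reported here.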

Additional observations from a re-analysis of the deposited data

Results flagged for a closer look

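The difference between the cushion and ventricle genotype effects of Mef2c was flagged because both mutant cushion libraries were above both wild type ones (162 and 163 against 100 and 116 CPM) while both mutant ventricle libraries were below both wild type ones (229 and 189 against 238 and 243 CPM). With 2 libraries a group, such separation can arise without a true difference, and its share over all genes was not counted. The difference of the differences was 0.79 on the log2 scale and did not pass its own test, with adjusted p = 0.414 in edgeR, 0.0852 with the replicate block, and a range of 0.0159 to 0.972 over the alternatives. The lowest values came from block fits that left out 1 library, and 3 of these passed. Across 14762 genes the same difference fell with GC content (Spearman rho -0.66), and the part of that relation in the Mef2c value was not tested.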

How the results depend on the processing

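Factor calls moved most with the replicate number. Calls over all genes moved as well. Between wild type tissues they went from 3453 by group to 6179 with the block and 6156 with the block and GC and length correction. Between mutant tissues they went from 1407 to 3572 and 4728, and in mutant against wild type cushion from 0 to 129 and 74. With the correction alone these 3 comparisons gave 3615, 2184 and 0 calls. In mutant against wild type cushion 0 factors were called by group and 1 with the replicate block, with 0 to 2 in block fits that left out 1 library, and for the difference between tissues 0 to 1. Cushion against ventricle in wild type gave 3 calls, 5 with the block and GC and length correction, 4 with the block or DESeq2, 2 with the correction alone and 2 to 4 without 1 library. In mutants it gave 1 call by group, 4 with the block, 5 with the block and the correction, 3 with the correction alone, 3 with library totals without TMM, 2 with DESeq2, 0 to 2 without 1 library, and 3 to 7 in block fits without 1 library. Median transcript length left 2 factors at their rank.

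Signs of small differences turned under some settings, and the cause was not tested. In cushion genotype differences these were Gata4 (0.07 with block and correction, 0.06 with the correction), Gata6 (-0.00 with rows summed, -0.01 without TMM, and -0.36 to 0.33 without 1 library), Hand2 (0.18 and 0.19 with the corrections, -0.50 to 0.19 without 1 library), Mef2a (-0.14 and -0.14, -0.01 to 0.09) and Isl1 (-1.16 to 3.39). In wild type tissue differences they were Nkx2-5 (0.05 without TMM, -0.55 to 0.22), Hand2 (-0.09 and -0.07), Mef2a (0.04, 0.03, and 0.04 without TMM, -0.22 to 0.01) and Isl1 (-0.35 to 4.33). In mutant tissue differences they were Hand2 (-0.10 to 0.59), Mef2a (-0.09 and -0.09, -0.08 to 0.25) and Isl1 (-0.48 to 6.94). The settings without TMM, the correction without block and the block fits without 1 library were added after seeing the data. Without TMM the wild type tissue median of all genes moved by 0.13.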
